A study of Mus musculus with 6 samples.

Results

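Replication-dependent histone genes encode the histones that package newly copied DNA, and 31 genes named as this family were measured here with a probe set of their own. They were all genes whose older symbol began with Hist1h, Hist2h, Hist3h or Hist4h and that had a probe set tied to 1 gene symbol. The platform annotation used current symbols, so the older ones were taken from RefSeq by gene ID. RefSeq listed 70 such genes. Of the 39 without a probe set of their own, 38 appeared only in probe sets shared by several genes and 1 appeared in none. The 31 genes stood among 19938 gene symbols with such a probe set. They comprised 5 H1, 5 H2A, 11 H2B, 3 H3 and 7 H4 genes, with 23 in Hist1, 4 in Hist2, 3 in Hist3 and 1 in Hist4. H2bu1-ps is annotated as a transcribed pseudogene. Membership rests on the symbol alone, and whether each of the 31 genes is replication-dependent was not tested.

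The cells were C2C12 myotubes, multinucleated muscle fibres that arise in culture when myoblasts of this mouse line fuse. After growth in 10% serum and differentiation over a week in 2% serum, they were transfected with a scrambled control siRNA or an siRNA against Plin2, the gene of the lipid droplet protein perilipin 2, each at 10 nM. With each siRNA, the cells received BSA alone, 200 µM oleate bound to BSA or 200 µM palmitate bound to BSA for 20 h, at 2.5 fatty acid molecules per BSA. Each of these 6 conditions had 1 array, so no condition had a replicate. All 6 groups share the cell line, the serum switch and the transfection, and the labels give no untransfected group. The design asks how lowering Plin2 changes gene expression with and without a fatty acid load.

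Replication-dependent histone mRNAs are made mainly in S phase, when DNA is copied, and their abundance is coupled to DNA synthesis. They end in a conserved stem-loop in place of a poly(A) tail. Stem-loop binding protein (Slbp) and the U7 snRNP process that end, and NPAT drives transcription of the clustered genes. Cells that leave the cell cycle, as fused myotubes do, normally make little of these mRNAs. Many copies of 1 histone type are nearly identical, so a probe set can detect more than 1 copy, and the identity of a single histone gene is uncertain on this array.

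Core promoter elements of histone genes lie close to the start site, and the 120 bases upstream of the start are shown for 5 genes. These are the 4 genes that passed the siRNA test described below (H1f1, H1f5, H4c4 and H3c15) and H2bc14, which came next to the threshold. Sequences are from RefSeq on GRCm38.p6 and run 5′ to 3′ on the strand of the gene. Capitals mark CCAAT on either strand, likewise the octamer ATTTGCAT, the E2F-type site TTTNGCGC and the core element TATAAA.
H1f1 (chr13:23763548-23763667, plus strand): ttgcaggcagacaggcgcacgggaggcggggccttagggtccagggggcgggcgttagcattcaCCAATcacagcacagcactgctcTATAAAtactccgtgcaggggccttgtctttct
H1f5 (chr13:21780626-21780745, minus strand): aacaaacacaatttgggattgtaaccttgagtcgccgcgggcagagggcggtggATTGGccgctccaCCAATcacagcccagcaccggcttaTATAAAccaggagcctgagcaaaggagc
H4c4 (chr13:23581448-23581567, plus strand): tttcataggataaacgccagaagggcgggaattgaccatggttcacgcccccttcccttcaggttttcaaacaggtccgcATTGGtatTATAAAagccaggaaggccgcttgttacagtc
H2bc14 (chr13:21721924-21722043, plus strand): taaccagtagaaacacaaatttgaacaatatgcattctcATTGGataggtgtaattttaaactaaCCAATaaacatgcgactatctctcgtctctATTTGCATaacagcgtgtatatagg
H3c15 (chr3:96239128-96239247, minus strand): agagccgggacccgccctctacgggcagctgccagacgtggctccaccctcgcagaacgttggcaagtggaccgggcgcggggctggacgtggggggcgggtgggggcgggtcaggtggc

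RefSeq promoters were matched for 26 of the 31 genes, and the 250 bases upstream of each start were searched on both strands. CCAAT, read by the factor NF-Y, was found in 21 of the 26, against 33.8% of all 32851 promoters searched in the same way. TATAAA, which the general transcription machinery binds near a start, was found anywhere in the 250 bases in 15 of the 26, against 12.4% of all. Not every match was near the start. The only one lay 94 bases upstream in H2bc1, 137 in H4c9, 142 in H2ac8, 212 in H2bc22 and 250 in H4c6. The octamer ATTTGCAT, bound by Oct-1, was in 9 of the 26, against 1.6% of all. It lay in 4 of 5 H2A and 5 of 8 H2B promoters and in none of the 5 H1, 2 H3 and 6 H4 promoters. These 9 are not separate sites. The octamer of H2ac1 is the same stretch of bases as that of H2bc1, and that of H2ac8 the same as that of H2bc8. The genes of each pair point away from each other and their searched bases overlap, so the 26 promoters are not independent. TTTNGCGC was in 2 of the 26, both H2B genes, against 1.13% of all. H3c15, H4c8 and H4f16 had none of the 4 motifs in their 250 bases, and of these only H3c15 passed the siRNA test. H1f1, H1f5 and H4c4 each had both CCAAT and TATAAA, as did genes that did not pass, such as H1f3 and H3c4. A link between motifs and siRNA changes was not tested. These are matches of letters, and the motifs were chosen with the expression values known.

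Plin2 itself was measured first, as a check of the labels. In the scrambled arrays its log2 level was 9.29, 10.03 and 10.10 for BSA, oleate and palmitate, and in the knockdown arrays 6.95, 7.63 and 7.45. The 3 knockdown arrays were lower than the 3 scrambled arrays (log2 change -2.47, SE 0.08, limma adjusted p = 2.3e-08). Arrays of the same siRNA correlated at 0.995 to 0.997, arrays of different siRNAs at 0.989 to 0.993, and array medians lay between 4.94 and 5.02. Of 14 myotube markers, 8 were lower and 1 higher with Plin2 siRNA, and of 10 undifferentiated myoblast markers 5 were higher and 0 lower; over all named probe sets 8.58% were lower and 8.5% higher. The mean log2 level of the myotube markers lay between 10.81 and 11.18 in every array. Of 7 adipocyte markers 0 passed, and of 10 fibroblast markers 1 was higher and 1 lower. The lower count of 8 myotube markers was 2 with either BSA array left out, 2 with no intensity trend and 5 with unnamed probe sets in the fit.

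Among the histone genes, linker histones H1f1 and H1f5 and the core histone H4c4 were lower with Plin2 siRNA and H3c15 was higher. The remaining 27 did not pass the test. All changes are log2 differences between the 3 Plin2 siRNA arrays and the 3 scrambled arrays, fitted with limma with treatment as a term, and a gene passed at a Benjamini-Hochberg adjusted p under 0.05 over all 21789 named probe sets. The error combines the variation of a gene's siRNA difference over the 3 treatments with a limma prior drawn from all fitted probe sets. The prior has the larger weight, with 9.21 degrees of freedom against 2 from the gene itself. Nothing in the labels says that the 6 cultures were separate, so p measures only the spread between these arrays. The 4 genes were 12.9% of the 31, against 17.1% of all named probe sets. Lower calls were 9.68% of the histone genes and 8.58% of all named probe sets, and the 1 higher call compares with 8.5% of all. The share of histone genes past the threshold was therefore not above the background.

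H1f1 encodes a linker histone, which binds the DNA between nucleosomes. For BSA, oleate and palmitate in turn its log2 level was 7.26, 7.45 and 7.73 in the scrambled arrays and 6.96, 7.10 and 6.93 in the knockdown arrays. Every knockdown array lay below every scrambled array, and scrambled palmitate was the highest. The change was -0.49 (SE 0.11, limma adjusted p = 0.0083, n = 3 pairs of arrays), to 71.4% of the scrambled level. With unnamed probe sets in the fit the adjusted p was 0.085.

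H1f5, a second linker histone, was 8.62, 8.86 and 9.19 in scrambled BSA, oleate and palmitate, and 8.46, 8.55 and 8.52 in the same order with Plin2 siRNA. The groups did not overlap, and the difference was -0.16 for BSA, -0.31 for oleate and -0.66 for palmitate. The change was -0.38 (SE 0.09, limma adjusted p = 0.016). Without the scrambled palmitate array it was -0.24 with an adjusted p of 0.081, and without the Plin2 palmitate array the adjusted p was 0.076.

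The other 3 linker histones were also below 0 without passing. H1f2, a somatic H1, changed by -0.16 (SE 0.07, adjusted p = 0.16), and its 3 knockdown arrays were all below its scrambled arrays. H1f3 and H1f6 were in the lowest 33.3% of named probe sets by mean signal and changed by -0.06 and -0.08, with overlapping arrays for H1f3.

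H4c4 encodes H4, which forms the core of the nucleosome with H3. It was 9.68, 9.75 and 9.79 in scrambled BSA, oleate and palmitate, and 9.52, 9.56 and 9.52 with Plin2 siRNA. The arrays of the knockdown were all lower, and the spread within each siRNA was small. The change was -0.21 (SE 0.06, limma adjusted p = 0.043). This call was lost when any 1 of the 6 arrays was left out, with changes between -0.24 and -0.18 and adjusted p between 0.065 and 0.16.

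The 6 other H4 genes went both ways, and none passed. H4c6 had the largest fall of the class that did not pass, -0.23 (SE 0.08, adjusted p = 0.088), with 7.69, 7.62 and 7.85 in scrambled BSA, oleate and palmitate and 7.38, 7.53 and 7.56 with Plin2 siRNA. H4c9 had the largest rise, 0.25 (SE 0.10, adjusted p = 0.12), from 6.07, 6.22 and 6.24 to 6.34, 6.41 and 6.51. The arrays did not overlap in either gene, in opposite directions. The H4 median change was 0.07, with 3 of 7 genes below 0.

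H3c15, which encodes H3, was the exception in size and direction. For BSA, oleate and palmitate its log2 level was 3.75, 3.79 and 4.05 in the scrambled arrays and 5.49, 5.38 and 5.77 in the knockdown arrays. All 3 knockdown arrays lay above all 3 scrambled arrays, by 1.74 for BSA, 1.59 for oleate and 1.72 for palmitate. The change was 1.68 (SE 0.11, limma adjusted p = 2.9e-06). The next largest rise of the 31 genes was 0.25. The probe set of H3c15 is tied to an mRNA record and to no RefSeq transcript, as are those of H1f2 and H3c4, and the scrambled values lay below 4.49, the mean under which the lowest 33.3% of named probe sets fell. The scrambled values are not shown to be above background, so no fold is given. Whether the signal comes from the H3c15 coding mRNA was not tested. The other 2 H3 genes, H3c4 and H3c7, changed by -0.07 each and overlapped between siRNAs. H3c7 had a mean log2 signal of 2.61, in the lowest 33.3% of named probe sets, so its small change says little.

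No H2A or H2B gene passed. H2A and H2B pair into the dimers that flank the H3 and H4 core. Among the 5 H2A genes, 2 were below 0, and the median was 0.07. H2aw had the largest rise (0.18, SE 0.09, adjusted p = 0.21) and H2ac15 the largest fall (-0.23, SE 0.09, adjusted p = 0.12). The arrays of H2aw overlapped between siRNAs, while those of H2ac15 did not.

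Among the 11 H2B genes, 9 were below 0, with a median of -0.13. H2bc14 had the largest fall. Its values were 8.22, 7.96 and 8.65 in scrambled BSA, oleate and palmitate and 7.80, 7.99 and 7.98 with Plin2 siRNA, so the oleate arrays differed by 0.03 and the siRNA groups overlapped. The change of -0.36 (SE 0.11) had an adjusted p of 0.053. H2bc9, singled out after its values were seen, changed by -0.25 (SE 0.08, adjusted p = 0.061), with all knockdown arrays lower. H2bc21 had the largest rise, 0.25 (SE 0.12, adjusted p = 0.2), and lay in the lowest 33.3% by mean signal.

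**Figure D1:**
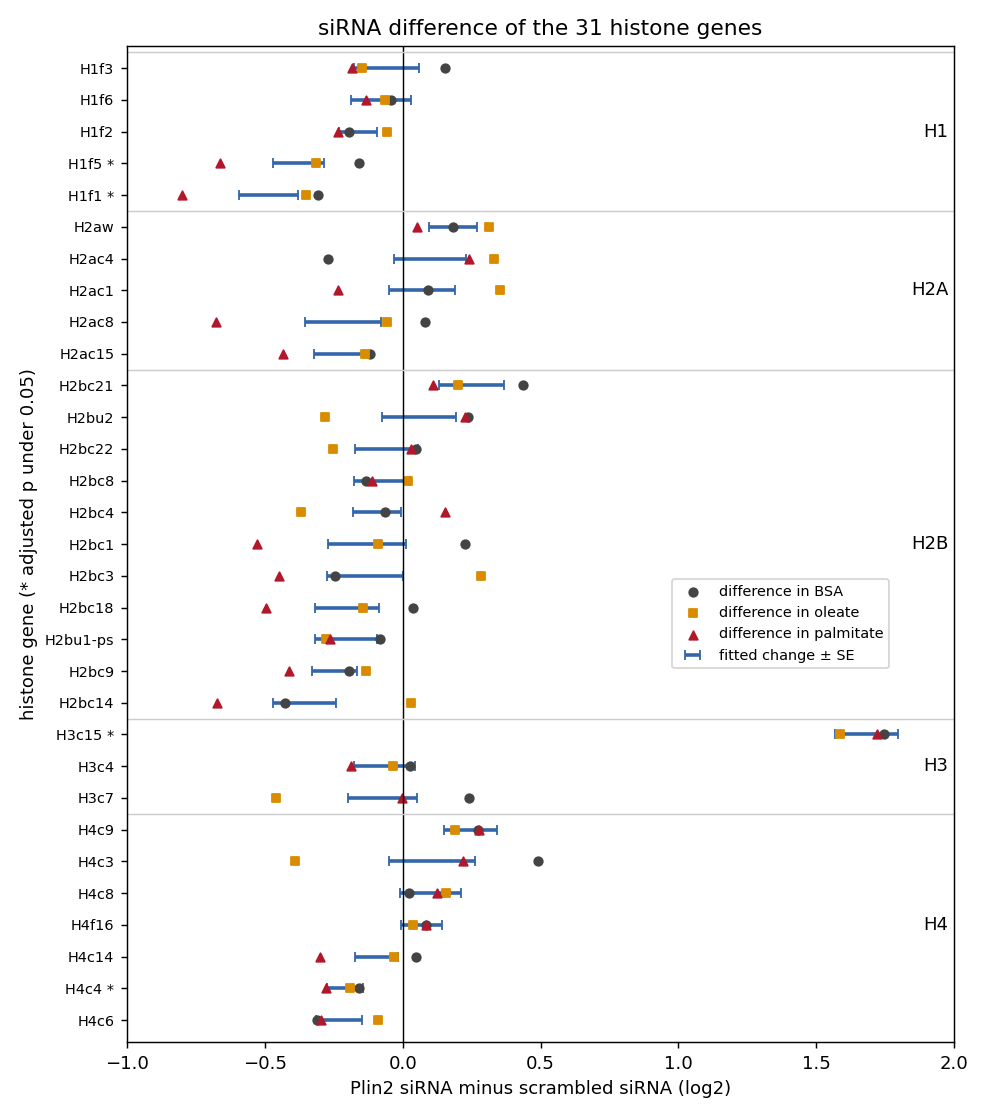
The horizontal axis gives the log2 difference of Plin2 siRNA minus scrambled siRNA for the 31 histone genes, grouped by type; points are the difference within BSA, oleate and palmitate, and the bar is the fitted change ± SE. H3c15 stands at 1.68, and the other 30 genes lie between -0.49 and 0.25; asterisks mark the 4 genes past the threshold.

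Across all 31 genes, 21 changes were below 0, against 48.2% of all named probe sets, and the median was -0.08, against 0.0069. These counts include 6 genes in the lowest 33.3% of named probe sets by mean signal (H1f3, H1f6, H2ac8, H2bc21, H2bc22 and H3c7). The siRNA groups did not overlap in 13 genes, 9 with the knockdown below (14.7% of all named probe sets were so) and 4 with it above (15.6% of all). That is 41.9% of the histone genes, against 30.3% of all named probe sets. An unadjusted p under 0.05 was reached by 10 of the 31 (32.3%), 8 of them lower and 2 higher, against 27.6% of all. In Hist1, the main cluster, 18 of 23 genes were below 0 and 3 passed, all lower; in Hist2 1 of 4 passed, and in Hist3 and Hist4 0 of 4 did.

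**Figure D2:**
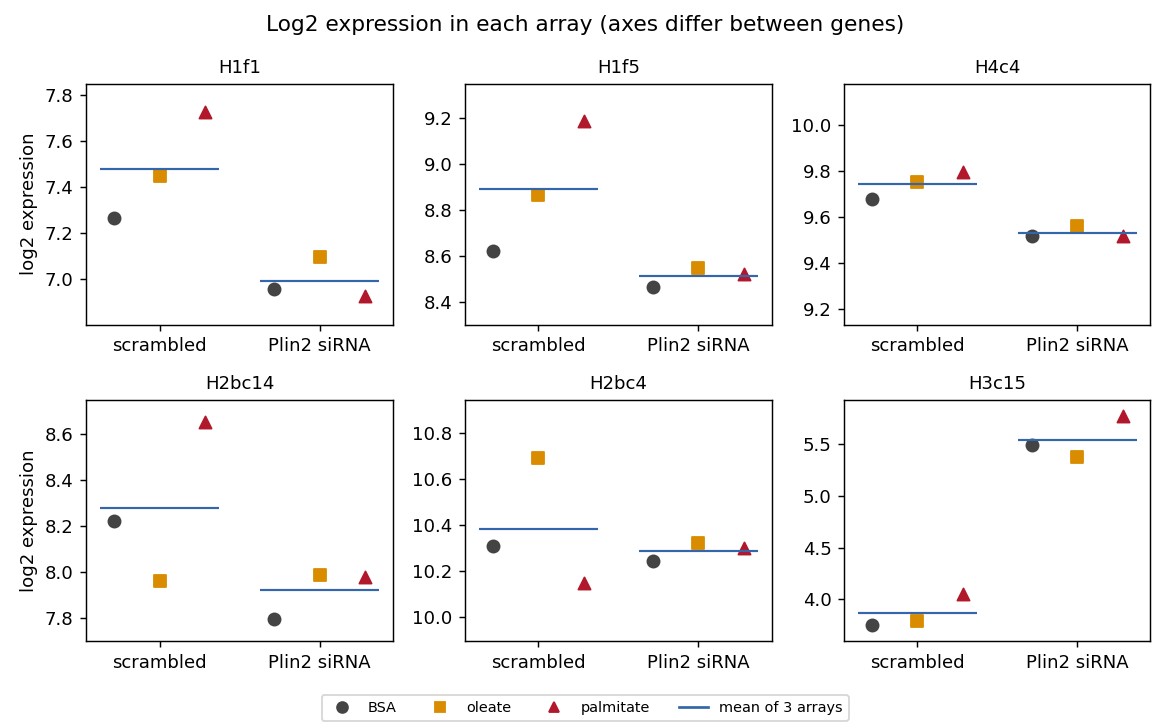
The vertical axes give log2 expression in each of the 6 arrays for the 4 genes past the siRNA threshold and for H2bc14 and H2bc4; points are single arrays and lines are means of the 3 arrays of an siRNA. Scrambled palmitate is the highest array for H1f1, H1f5, H4c4 and H2bc14, H2bc4 is highest in scrambled oleate at 10.69, and H3c15 is at 5.38 or above in every knockdown array.

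Most histone genes cannot be told apart by this array. Shared H2A probe sets also name genes outside the rule and are given below. For the other histone types, 24 probe sets are shared only by genes of the rule. They were brought in as an alternative, in a fit over the 23410 probe sets tied to 1 or several symbols. Of the 24, 21 were lower with Plin2 siRNA (87.5%, against 7.94% of all probe sets in that fit) and 0 were higher. These are not 24 independent measurements: the sets of a histone type largely name the same genes, and the 24 hold only 22 distinct rows of values. Of the 31 genes, 19 also appear in the 24 or in 3 further probe sets shared with genes outside the rule.

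Shared H2B probe sets, each tied to 14 or 15 genes, were lower in 7 of 7 (changes -0.34 to -0.24, SE 0.07 to 0.08, limma adjusted p 0.012 to 0.036). For BSA, oleate and palmitate their median log2 level was 9.77, 9.78 and 10.06 in the scrambled arrays and 9.54, 9.55 and 9.62 in the knockdown arrays. The medians of the knockdown were all below those of the scrambled arrays. Shared H3 probe sets, each tied to 12 genes, were lower in 9 of 10. Their medians were 10.95, 10.97 and 11.25 in scrambled BSA, oleate and palmitate and 10.75, 10.80 and 10.71 with Plin2 siRNA. Shared H4 probe sets were lower in 5 of 6, with medians of 10.34, 10.34 and 10.56 in the scrambled arrays and 10.11, 10.21 and 10.06 in the knockdown arrays. In all 3 types the scrambled palmitate array was highest.

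The remaining shared probe sets did not follow. The probe set of H2bc6 and H1f4 changed by 0.20 (SE 0.09, adjusted p = 0.2). The 2 probe sets that hold most H2A genes also include the variant H2ax and other genes outside the rule; they changed by 0.09 and 0.08 and did not pass. The siRNA calls of the shared probe sets depended on the fit. With no intensity trend in limma, or with the fit extended to all 35556 probe sets, 0 of 24 passed, with lowest adjusted p of 0.074 and 0.08. Without the scrambled palmitate array 2 passed, without the Plin2 palmitate array 4, and without either BSA array 7. In each of these fits 23 of 24 were below 0. Without either palmitate array the median change of the 24 was -0.19, against -0.29 with all arrays.

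**Figure D3:**
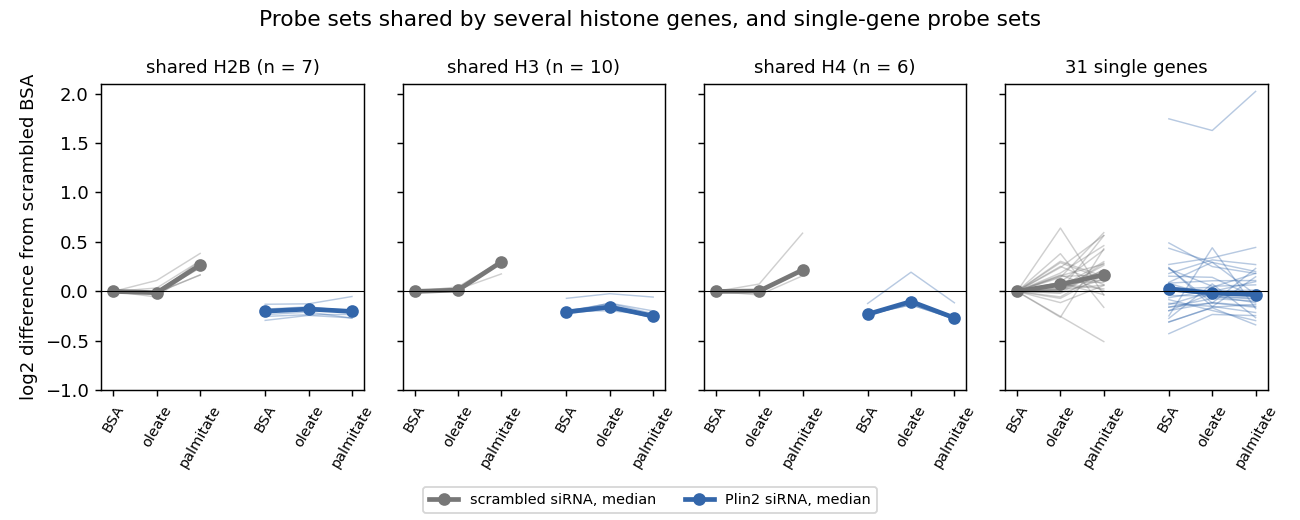
The vertical axis gives the log2 difference from the scrambled BSA array for shared H2B, H3 and H4 probe sets and for the 31 single genes; thin lines are probe sets and thick lines their medians. The medians of the shared sets are highest in scrambled palmitate and lie below 0 in the 3 knockdown arrays; of the single genes, 27 of 31 are above 0 in scrambled palmitate.

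Oleate and palmitate were each compared with BSA, over the 2 siRNAs, and share the BSA arrays. In oleate 0 of 31 histone genes passed, against 0.0734% of all named probe sets, and 1 had an unadjusted p under 0.05, against 6.26% of all. In palmitate 0 of 31 passed, against 0.00918% of all, and 2 had an unadjusted p under 0.05, against 5.2% of all. For palmitate against oleate 0 of 31 passed, against 0.262% of all, and 3 had an unadjusted p under 0.05, against 9.21% of all. Each of these comparisons rests on 2 pairs of arrays.

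For each histone type, the gene with the largest difference of a fatty acid from BSA is given by its values. H2bc3 was 5.79 and 5.95 in scrambled BSA and oleate and 5.54 and 6.23 with Plin2 siRNA, an oleate change of 0.42 (SE 0.17, adjusted p = 0.72). It was higher with oleate in both siRNAs. H4c3 had an oleate change of 0.20 (SE 0.19), made of a rise from 4.72 to 5.36 in scrambled arrays and a value of 4.97 against 5.21 in knockdown arrays, so the siRNAs went opposite ways. H2ac4 had a palmitate change of -0.25 (SE 0.16), from 5.89 to 5.38 in scrambled arrays and from 5.62 to 5.62 in knockdown arrays. H1f5 had a palmitate change of 0.31 (SE 0.11, adjusted p = 0.9) and H3c15 one of 0.29 (SE 0.14, adjusted p = 0.94). The H1f5 difference lay in the scrambled arrays, and that of H3c15 was alike in both, at 0.30 and 0.28.

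The palmitate difference was also read within each siRNA. With scrambled siRNA, palmitate minus BSA was above 0 in 27 of 31 histone genes, with a median of 0.17, while over all named probe sets 50.1% were above 0, with a median of 5e-04. With Plin2 siRNA it was above 0 in 15 of 31, with a median of -0.0017, against 46.1% of all. H1f1 shows the pattern, with differences of 0.46 in scrambled and -0.03 in knockdown arrays, and H1f5, with 0.57 and 0.06. The shared probe sets had a median palmitate difference of 0.29 with scrambled siRNA and -0.03 with Plin2 siRNA. Oleate minus the same scrambled BSA array was also above 0 in 24 of 31 histone genes, with a median of 0.07, against 43.3% of all. With Plin2 siRNA the oleate difference was above 0 in 16 of 31, against 48.7% of all. In the shared probe sets its median was 0.0061 with scrambled siRNA and 0.05 with Plin2 siRNA. Since every condition had a single array, none of these differences was tested by itself. The interaction of siRNA with any fatty acid was fitted and passed in 0 of 31 genes, against 0% of all named probe sets. In that fit 0 of 31 had an unadjusted p under 0.05, against 2.53% of all. This term pools oleate and palmitate and leaves 1 residual degree of freedom. It therefore cannot decide whether the palmitate difference alone depends on the siRNA.

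**Figure D4:**
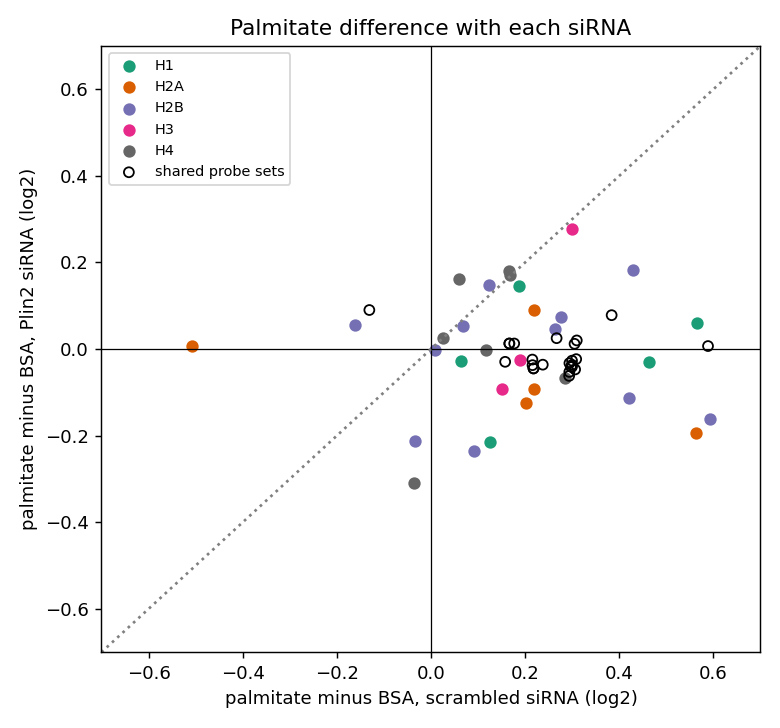
The horizontal axis gives palmitate minus BSA with scrambled siRNA and the vertical axis the same with Plin2 siRNA, in log2 units, for the 31 histone genes by type and the 24 shared probe sets; the dotted line marks equal differences. Of the 31 genes, 27 lie to the right of 0 and 15 lie above 0.

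Scrambled palmitate was the highest of the 6 arrays for 15 of 31 histone genes (48.4%, against 23.6% of all named probe sets) and for 23 of 24 shared probe sets. It moved with other genes: the mean of the mitosis list was also highest there, 6.55 against 6.29 in scrambled BSA and 6.47 in scrambled oleate, and the mean of the DNA replication list was 7.18 against 7.11 and 7.14. The mean of the myotube list was lowest there among the scrambled arrays, 10.83 against 11.18 and 11.00. Their part in the histone values was not tested. In bulk RNA, fewer cells making a histone mRNA and less of it per cell cannot be told apart.

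The genes that accompany histone synthesis were then listed by role, with 3 of 20 histone mRNA processing genes higher and 2 lower with Plin2 siRNA, against 8.5% higher and 8.58% lower over all named probe sets. Ncbp2, a cap-binding protein, was higher by 0.56 (SE 0.08, limma adjusted p = 0.00075), and Lsm11, a U7 snRNP component, by 0.47 (SE 0.11, adjusted p = 0.012). Snrpg, a core Sm protein of snRNPs, was higher by 0.25 (SE 0.07), and Snrpb, another, changed by -0.25 (SE 0.06). The list had a median of 0.04 and 7 of 20 genes below 0. Without the scrambled BSA array the adjusted p was 0.14 for Lsm11 and 0.13 for Snrpb, and without the Plin2 BSA array it was 0.15 and 0.13. That of Snrpg was between 0.053 and 0.17 with any 1 array left out.

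Slbp, which binds the histone stem-loop, had 2 probe sets that disagree. The one with the higher mean was 7.64, 7.94 and 7.98 in scrambled BSA, oleate and palmitate and 7.50, 7.58 and 7.68 with Plin2 siRNA, a change of -0.27 (SE 0.08, adjusted p = 0.046). The other changed by -0.05 (SE 0.08, adjusted p = 0.79), and the mean of both by -0.16 (adjusted p = 0.22). The call on the first was also lost when any 1 array was left out, with adjusted p between 0.087 and 0.18. Npat, the transcriptional coactivator of histone genes, changed by 0.06 (SE 0.09, adjusted p = 0.77).

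Histone variants outside the rule, listed as replication-independent, had 2 of 9 genes higher and 1 lower, against 8.5% and 8.58% of all named probe sets. Such variants are made outside S phase or replace other histones in chromatin. Whether each of the 9, H2ax among them, is uncoupled from DNA synthesis was not tested. H2ax, the variant phosphorylated at DNA breaks, was 6.37, 6.29 and 6.65 in scrambled BSA, oleate and palmitate and 6.80, 6.92 and 6.92 with Plin2 siRNA, a change of 0.45 (SE 0.10, adjusted p = 0.01). The knockdown arrays were all above the scrambled ones. Of the H2A.Z genes, H2az2 was higher by 0.36 (SE 0.07, adjusted p = 0.0039), and H2az1 was lower (-0.27, SE 0.07, adjusted p = 0.017), so the pair went opposite ways. Without either palmitate array the adjusted p of H2az1 was 0.08 and 0.079, and without either BSA array 0.085 and 0.084; for H2ax it was 0.051 without the Plin2 BSA array.

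Histone chaperones, which carry new histones to DNA, had 2 of 18 genes higher, against 8.5% of all named probe sets, and 0 lower. Asf1b, an H3-H4 chaperone linked to proliferation, was 8.84, 8.88 and 9.15 with scrambled siRNA and 9.68, 9.61 and 9.57 with Plin2 siRNA, in BSA, oleate and palmitate. It was higher by 0.66 (SE 0.08, adjusted p = 0.00024) in arrays that did not overlap. Supt16, a subunit of FACT, was higher by 0.23 (SE 0.07, adjusted p = 0.033), a call that was lost without either BSA or either palmitate array (adjusted p between 0.078 and 0.31).

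DNA replication genes had 17 of 44 lower and 0 higher with Plin2 siRNA, with a median of -0.13, against 8.58% lower and a median of 0.0069 over all named probe sets. Prim1, a primase subunit, was 6.65, 7.06 and 6.57 in scrambled BSA, oleate and palmitate and 5.69, 5.83 and 5.78 with Plin2 siRNA. Its change was -0.99 (SE 0.11, adjusted p = 1e-04). Mcm6, part of the replicative helicase, changed by -0.90 (SE 0.10) and Rrm2, of ribonucleotide reductase, by -0.82 (SE 0.07). E2f8 and E2f2, transcription factors of the cell cycle, changed by -0.73 and -0.67. The 5 genes passed in each of 13 alternatives. Mitosis genes had 9 of 19 lower and 0 higher, led by Prc1 (-0.78, SE 0.10, adjusted p = 0.00019), a spindle midzone protein. Lower calls numbered 12 to 14 in DNA replication and 7 to 8 in mitosis with 1 array left out, and 8 and 3 with unnamed probe sets in the fit; without either oleate array 2 DNA replication genes were higher.

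The single histone genes had 3 of 31 lower in the same comparison (9.68%), close to the 8.58% of all named probe sets. Whether these shares differ was not tested.

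**Figure D5:**
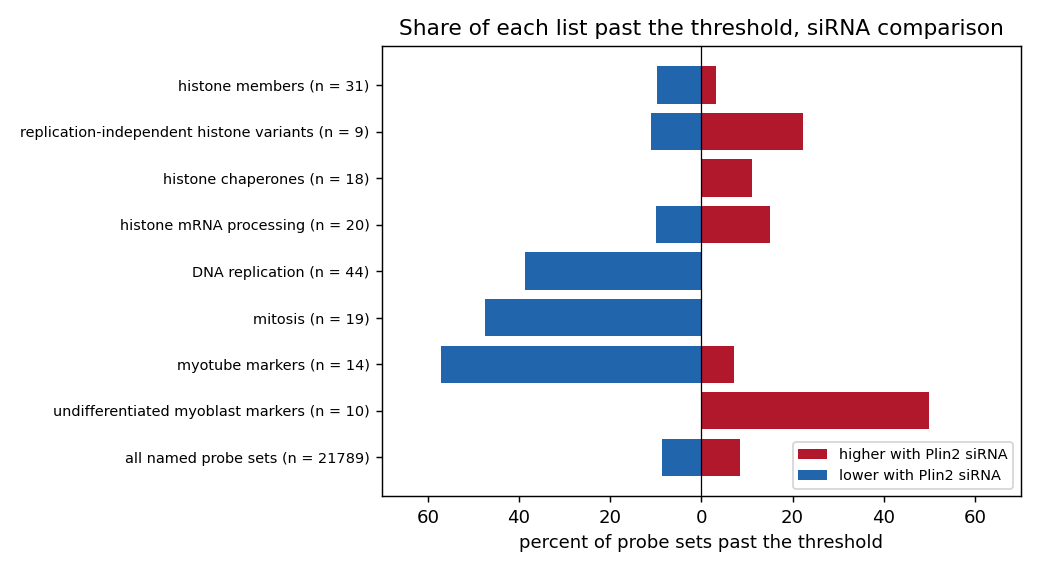
The horizontal axis gives the percent of probe sets past the siRNA threshold, with those lower in Plin2 siRNA to the left of 0 and those higher to the right, for the histone genes, 7 related gene lists and all 21789 named probe sets. Lower calls make up 9.68% of the histone genes, 17 of 44 DNA replication genes and 9 of 19 mitosis genes, against 8.58% of all named probe sets.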

How the data were processed

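For each array and probe set the authors deposited 1 log2 value, computed with RMA per the submitters' processing notes. RMA subtracts background, makes arrays comparable and combines the probes of a set. Neither its version nor a build is given in the sources used here. Per the labels' protocols, 100 ng of RNA (RIN above 8) was labelled with an Affymetrix whole-transcript kit without rRNA reduction. Values were used as deposited. The platform annotation tied 21789 of 35556 probe sets to 1 symbol and 1621 to several; 12146 were unnamed here. Each histone gene had 1 probe set; other genes are given by the one with the highest mean. An additive model of siRNA and treatment was fitted over 6 arrays (limma 3.58.1, R 4.3.3, eBayes with trend; 2 residual and 9.21 prior degrees of freedom), and an interaction model (siRNA with either fatty acid) had 1 and 17.52. The number of arrays limits precision. The code was tested on simulated data. A gene that did not pass is not shown to be unchanged. Alternatives were the trend, the probe sets fitted, a low-signal filter, scaling, the probe set per gene, shared probe sets and leaving out arrays. Named genes were those past the threshold, the largest rise, fall and fatty acid difference of each histone type, up to 5 genes per list past the threshold, and Slbp, Npat and Plin2. The 31 genes, the 9 lists and the motifs were chosen with earlier results of these data known.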

Additional observations from a re-analysis of the deposited data

How the results depend on the processing

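The siRNA count of 4 histone genes was 2 (H3c15 and H1f1) when limma used no trend, 1 (H3c15) when unnamed probe sets joined the fit, and 25 of 55 with the shared probe sets; leaving out 1 array gave 2 to 6. Without either palmitate array it was 2, H3c15 and H1f1. H3c15 passed in each of the 13 alternatives, H1f1 in 12, H1f5 in 9, and H4c4 and H2bc14 in 4 each. With the low-signal filter H2bc14 and H2bc9 passed beside the 4 genes, while 28.1% of all probe sets kept passed. With arrays centred on their medians the count stayed at 4, with H2bc14 past the threshold and H4c4 not. The fatty acid counts of 0 changed only when 1 array was left out: without Plin2 oleate, 1 gene passed for oleate (H2bc4) and 3 for palmitate against oleate (H2bc14, H2bc4 and H4c3), and without Plin2 palmitate 1 did for the latter (H2bc4), ranges of 0 to 1 and 0 to 3. The siRNA count of 21 shared probe sets was 0 without the trend, 0 when unnamed probe sets joined the fit, and 2 to 21 with 1 array left out; these alternatives were chosen after seeing the data. Among single genes, signs reversed for H2ac4 with palmitate (0.029 without scrambled BSA; range -0.53 to 0.029), H4c3 with oleate (-0.09 without scrambled BSA, -0.17 without scrambled oleate; range -0.17 to 0.57) and H3c7 with siRNA (0.12 without either oleate array; range -0.23 to 0.12), none past the threshold; the cause was not tested. The interaction has no value with an array left out, since no residual degree of freedom remains. Treatment is a term of each siRNA fit, which pairs the arrays of both siRNAs within a treatment.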
